A study of Arabidopsis thaliana with 40 samples.

Results

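The set described here holds the probe sets with a higher signal in Columbia than in Landsberg erecta plants of Arabidopsis thaliana, whichever mutation the plants carried. It was chosen on the measured values. For each of the 22746 probe sets other than the manufacturer's controls, the log2 signal was averaged over the 8 arrays of each genotype, and the highest of the co-2, ft-2 and Ler means was subtracted from the lower of the lfy-12 and Col means. A probe set was a member where this difference was at least 1 log2 unit, that is at least 2-fold. That gave 190 members (0.835%), after the rule's own exceptions were left out, 1 of which passed the threshold. Of the members, 118 list exactly 1 gene (116 different genes), 9 list several genes and 63 list none. A group of genes or a range below refers to members that list 1 gene unless stated otherwise.

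All values are from total RNA of the shoot apex, hybridised to 40 ATH1 arrays. The genotypes were lfy-12 and Col (Columbia), which form the Columbia background, and co-2, ft-2 and Ler (Landsberg erecta), which form the Landsberg background. The background of each mutant allele is general knowledge (Columbia for lfy-12, Landsberg erecta for the other 2) and is not stated in the labels. Every plant was raised for 30 days at 21 °C under 9 h of light and 15 h of darkness, and was then given 16 h of light and 8 h of darkness for 0, 3, 5 or 7 days, which induces flowering. Each of the 20 combinations of genotype and day has 2 arrays. The labels do not say whether the 2 came from separate plants or harvests, so the p-values rest on a spread between arrays that may be technical. Each gene is represented by a single mutant allele.

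Columbia and Landsberg erecta are natural accessions that have long been kept as laboratory strains, and their genomes differ by many single bases, by insertions and deletions and by genes that only one of them carries. Genes for pathogen recognition, such as those for nucleotide-binding leucine-rich-repeat proteins, are among the most variable between accessions. The probes of the ATH1 array are short and were designed on the Columbia sequence, so a transcript of Landsberg erecta that differs in sequence can bind less strongly at the same abundance. For every difference between backgrounds given below, a lower transcript level and a poorer probe match cannot be told apart. Likewise, in whole apices fewer cells of a type and less RNA per cell cannot be told apart.

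Between the 2 replicates of a group, 3 arrays stood apart in the direction of the other background. They had already been named in an earlier analysis of these arrays. The array of co-2 at day 3, replicate 1, had a member median of 5.90, and 151 of the 190 members were higher on it than on its replicate. On the array of ft-2 at day 0, replicate 1, the median was 5.81 and 138 members were higher than on its replicate. The array of lfy-12 at day 5, replicate 2, had a median of 7.53, and only 62 members were higher than on its replicate, with a median difference of −0.11. In the other 17 groups, between 75 and 115 members were the higher ones on either array. Counts of called members are given with and without these 3 arrays for the comparisons that use them. Levels and differences of single genes include these arrays unless stated otherwise.

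**Figure D1:**
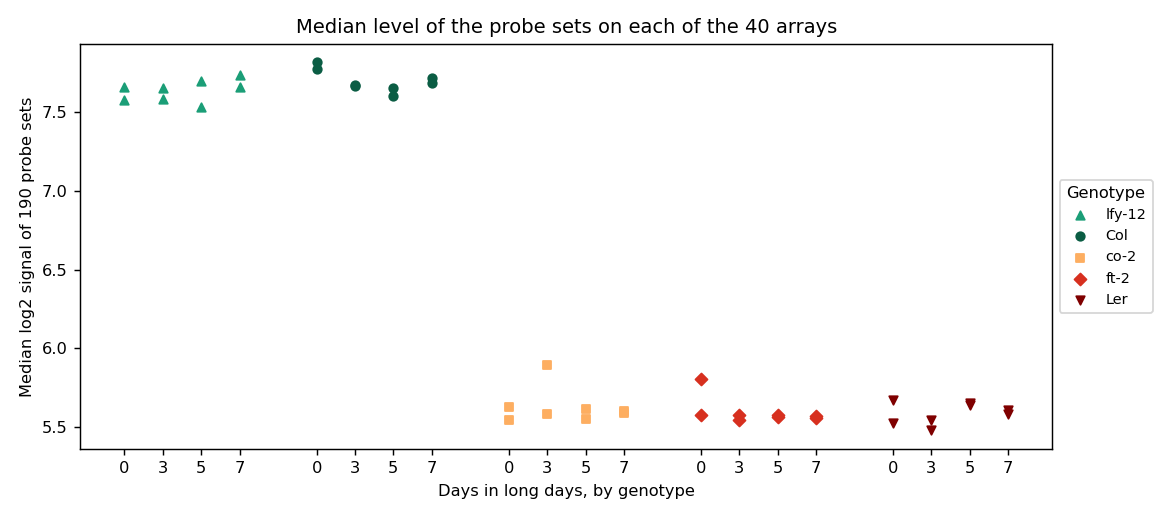
Median log2 signal of the 190 probe sets (y axis) on each of the 40 arrays, by genotype and by days in long days (x axis), with 1 point per array. Every lfy-12 and Col array lies above every co-2, ft-2 and Ler array, and the highest points of co-2 (5.90) and ft-2 (5.81) stand apart from the others of their genotypes.

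As a check of the tissue, 5 of 12 shoot apex markers had a probe set listed. CLV3, a peptide signal made by stem cells of the meristem, lay between 5.23 and 6.47 on all 40 arrays, and PHV, a regulator of upper leaf identity, lay between 9.62 and 10.18. The leaf markers LHCB4.1 (11.72 to 12.66) and RCA (10.68 to 12.76), a light-harvesting protein and the activator of Rubisco, were high throughout, and none of 5 root markers had a probe set listed. None of these markers was a member. Array medians over all probe sets lay between 6.91 and 7.07.

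Across the members, the difference between backgrounds had a median of 1.501 log2 units (2.83-fold) and reached 6.10 (68.4-fold). It was at least 2 in 52 members, at least 3 in 17 and at least 4 in 7. The same rule with the backgrounds exchanged gave 95 probe sets, of which 20 had a difference of at least 2, 8 of at least 3 and 4 of at least 4. The middle member had a signal of 7.62 in lfy-12 and 7.65 in Col, against 5.65 in co-2, 5.62 in ft-2 and 5.61 in Ler. The median over all probe sets lay near 7 in every genotype, between 6.97 and 7.03. Single members ranged between 4.72 and 12.65 in lfy-12 and between 4.92 and 12.59 in Col, against 3.56 to 10.42 in co-2, 3.56 to 10.54 in ft-2 and 3.42 to 10.43 in Ler.

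In 170 of the 190 members, all 16 arrays of the Columbia background were above all 24 arrays of the Landsberg background. Over all probe sets this held for 2.21%. Because the rule used the same arrays, nothing is read from that contrast. Without the 3 arrays named above, the backgrounds were apart in 171 members.

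Background on these arrays was read from 27 probe sets for bacterial genes, which no plant transcript is designed to match. Their medians lay between 3.65 and 3.70 in the 5 genotypes and their highest genotype means between 4.87 and 4.98. In all 3 Landsberg-background genotypes, 62 members (32.6%) were within the range of these controls, compared with 26.2% of all probe sets. Of those 62, 58 were above the control range in both lfy-12 and Col. Another 114 members were above the range in all 5 genotypes. The controls give a range for the array as a whole, so a signal above it may still hold binding of other transcripts. For members at background in Landsberg erecta, the size of the difference is limited by the floor of the array.

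**Figure D2:**
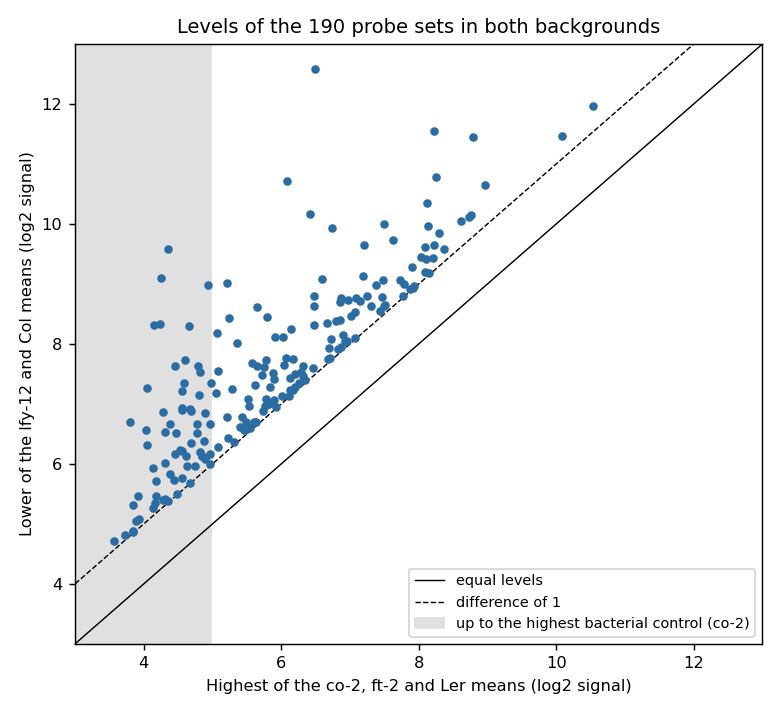
The lower of the lfy-12 and Col means (y axis) against the highest of the co-2, ft-2 and Ler means (x axis), both in log2 signal, with 1 point for each of the 190 probe sets. All points lie on or above the dashed line that marks a difference of 1, and the shaded band ends at the highest bacterial control in co-2 (4.98).

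The rule averaged the 4 days, so the values of single days are a description of the same arrays and nothing is read from their direction. With means over 2 arrays in place of 8, the median difference was 1.48 at day 0, 1.45 at day 3, 1.47 at day 5 and 1.51 at day 7. It was above 0 on all 4 days in 190 members and at least 1 on all 4 days in 123. Within a member, the largest and smallest of the 4 daily differences were a median of 0.43 apart, and more than 1 apart in 22 members.

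At the edge of the rule stood AT2G14660 with 1.02, a probe set shared by AT1G63630 and AT1G63230 with 1.01, and ARPN with 1.01. Just outside it were AT5G07870 with 0.99, a probe set that lists no gene with 0.99, and AT1G62480 with 0.99.

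The largest difference, 6.10, was that of AT2G25510. On the arrays of lfy-12 its signal lay between 12.38 and 12.76 (median 12.69), and on those of Col between 12.51 and 12.64 (median 12.59), close to the top of the scale. The medians were 5.57 in co-2, 5.37 in ft-2 and 5.69 in Ler. A few Landsberg-background arrays were far above these medians. The signal was 10.99 on co-2 day 3 replicate 1 and 10.29 on ft-2 day 0 replicate 1, 2 of the arrays that stood apart, but also 9.78 on Ler day 0 replicate 1 and 7.95 on co-2 day 5 replicate 1. Their replicates had 5.41 for co-2 at day 3, 4.93 for ft-2 at day 0, 5.59 for Ler at day 0 and 5.21 for co-2 at day 5. The second largest difference, 5.22, was that of a probe set that lists no gene.

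AT2G01090, the hinge protein of mitochondrial complex III of the respiratory chain, had the next largest difference among listed genes, 4.86. It lay between 9.00 and 9.23 in lfy-12 (median 9.11) and between 9.11 and 9.47 in Col (median 9.30). In co-2 it lay between 3.79 and 4.85 (median 4.21), in ft-2 between 3.72 and 5.40 (median 4.02) and in Ler between 3.80 and 4.65 (median 4.14). All 3 Landsberg-background medians were in the range of the bacterial controls. The subtilisin-like protease AT4G21650 (difference 4.09) followed the same pattern. Its medians were 8.38 in lfy-12 and 8.47 in Col, against 4.14 in co-2, 4.11 in ft-2 and 3.85 in Ler.

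Of the next 3 listed genes, AT5G45500 and AT3G43740 encode proteins with leucine-rich repeats, and AT3G44430 (3.81) lay between them. AT5G45500 (4.05) lay between 8.81 and 9.11 in lfy-12 and between 9.06 and 9.58 in Col, against 4.37 to 6.02 in co-2, 4.68 to 5.60 in ft-2 and 4.07 to 4.65 in Ler. For AT3G43740 (3.64), the medians were 8.34 in lfy-12 and 8.67 in Col, against 4.55 in co-2, 4.69 in ft-2 and 4.05 in Ler. Neither leucine-rich-repeat gene had overlapping arrays between the backgrounds.

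The other genes among the 20 with the largest differences had values between 2.54 and 3.22. They were AT5G55790, the F-box protein gene AT5G56380, AT4G20480, the TRAF-like gene ZW9, AT4G19500, the cystatin-type protease inhibitor AT5G56910, the ubiquitin ligase LUL1, the coatomer subunit gene AT2G34840, the ferritin-like gene AT3G61010, ECS1, AT4G02540, the pseudogene AT3G43690, AT4G02850 and AT3G16750. ECS1, a cell wall protein, was high in every genotype. Its medians were 11.48 in lfy-12 and 11.79 in Col, against 8.73 in co-2, 8.83 in ft-2 and 7.86 in Ler. LUL1, by contrast, had medians of 7.70 in lfy-12 and 7.77 in Col, and of 4.76 in co-2, 4.75 in ft-2 and 3.98 in Ler, where all 8 arrays were between 3.92 and 4.22.

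**Figure D3:**
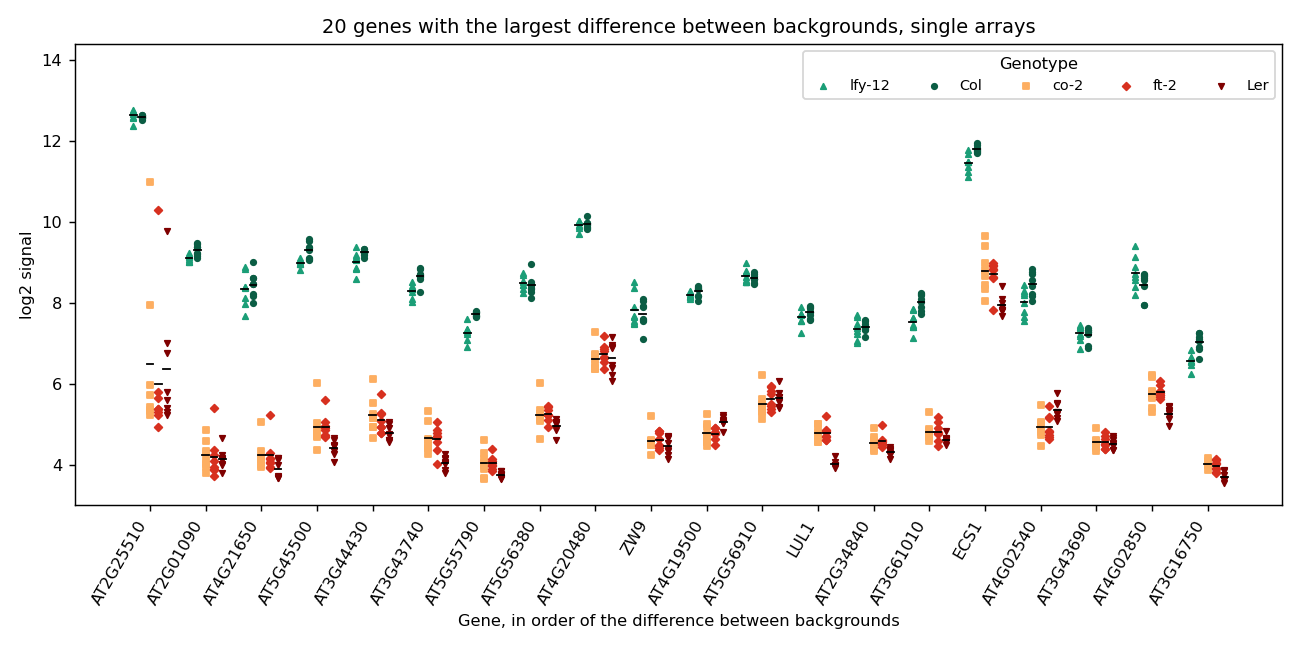
Log2 signal (y axis) of the 20 listed genes with the largest difference between backgrounds (x axis), with 1 point per array and a bar at the mean of the 8 arrays of each genotype. In each gene the lfy-12 and Col points lie above the others, and the co-2, ft-2 and Ler points of AT2G25510 at 10.99, 10.29 and 9.78 are far above the rest of their genotypes.

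Resistance genes of the TIR-NBS-LRR class, receptors inside the cell that recognise pathogen effectors, contributed 6 members with differences between 1.16 and 3.12. The largest was that of AT4G19500, known as RPP2A, which is needed for resistance of Columbia to a downy mildew isolate. It lay between 8.11 and 8.29 in lfy-12 and between 8.05 and 8.42 in Col, against 4.46 to 5.24 in co-2, 4.48 to 4.91 in ft-2 and 4.81 to 5.22 in Ler. CSA1 (2.47), named for a shade avoidance phenotype of its mutant, had medians of 7.86 in lfy-12 and 7.63 in Col, against 5.09 in co-2, 4.98 in ft-2 and 4.88 in Ler. The others were AT3G44630 (1.97), AT1G63880 (1.70), AT5G36930 (1.19) and AT3G44400 (1.16). In AT3G44400 the signal was low even in the Columbia background, with means of 4.72 in lfy-12 and 4.98 in Col, against 3.56 in co-2, 3.56 in ft-2 and 3.42 in Ler.

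Related defence genes were also members. AT3G48080 (EDS1B), a lipase-like protein through which TIR-NBS-LRR receptors signal, had a difference of 1.66, with medians of 6.55 in lfy-12 and 6.33 in Col, against 4.75 in co-2, 4.49 in ft-2 and 4.27 in Ler. Among the members were 3 chitinase genes, whose enzymes cut fungal cell walls, CHI (1.32), AT2G43600 (1.18) and AT2G43610 (2.36). Chitinase genes that were not members were not counted. Receptor-like kinases were represented by AT1G16260 (1.75), of the wall-associated kinase type, and the leucine-rich-repeat kinase AT5G59670 (1.03). These groups were put together from general knowledge after the members were known, so their sizes are a description.

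Genes of protein turnover formed another group. The F-box proteins AT5G56380 (3.19), AT5G56370 (1.44) and AT1G23390 (1.07), the ubiquitin ligase LUL1 (2.85) and the ubiquitin-conjugating enzyme UBC37 (1.30) act in marking proteins for degradation. The proteases were AT4G21650 (4.09), the cysteine protease AT3G43960 (2.11) and the proline iminopeptidase PIP (1.43). PIP was well expressed in both backgrounds, with means of 9.65 in lfy-12 and 9.93 in Col, against 8.22 in co-2, 8.05 in ft-2 and 7.88 in Ler.

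Enzymes of small-molecule metabolism were a further group. The 6 oxygenases and conjugating enzymes ranged between 1.04 and 2.51 with a median of 1.29. They were the 2-oxoglutarate-dependent dioxygenases 2A6 (2.51) and AT1G06640 (1.43), the glucosyltransferase UGT88A1 (1.30), the cytochrome P450 genes CYP71B37 (1.28) and CYP71B26 (1.04) and the glutathione transferase GSTU16 (1.28). The 5 cell wall and lipid enzymes ranged between 1.02 and 2.04.

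Among loci known to differ between the accessions, 2 of 18 genes on a list had a probe set that lists them, AOP1 and AOP3, and neither was a member. AOP3, an enzyme of glucosinolate side chains, was lower in the Columbia background, with means of 4.72 in lfy-12 and 4.52 in Col, against 9.79 in co-2, 9.80 in ft-2 and 9.40 in Ler. Of 33 genes for aliphatic glucosinolate synthesis and breakdown, 5 had a probe set that lists only them, and none of these was a member. The list leaves out the genes that the rule names as exceptions, so this count is set in part by the rule. Because 63 members list no gene, it is not known whether other genes of either list are members.

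For 4 genes a second probe set allowed a comparison within the gene. Both probe sets of the ferritin-like gene AT3G61010 were members (2.72 and 1.70), as were both of AT3G19515 (2.45 and 1.34). In the other 2 genes only 1 probe set was. The member probe set of 2A6 had medians of 9.98 in lfy-12 and 10.12 in Col, against 6.99 in co-2, 7.46 in ft-2 and 6.69 in Ler. Its other probe set gave a difference of 0.48, with means of 5.08 in lfy-12 and 5.06 in Col, against 4.52 in co-2, 4.59 in ft-2 and 4.55 in Ler. nad1, a subunit of mitochondrial complex I whose gene lies in pieces on the mitochondrial genome, had a difference of 2.20 in the member probe set. That probe set had medians of 6.84 in lfy-12 and 6.80 in Col, against 4.63 in co-2, 4.51 in ft-2 and 4.47 in Ler. In its other 6 probe sets the difference lay between −0.45 and −0.08. For nad1 the difference was seen in 1 of 7 probe sets. For 2A6 the other probe set was within the range of the bacterial controls in co-2, ft-2 and Ler and just above it in lfy-12 and Col.

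Member genes were spread over all chromosomes. In the order of the RefSeq gene table (TAIR10.1), 115 members could be placed among 13217 measured genes, and made up 0.88% of those on chromosome 1, 0.922% on chromosome 2, 0.956% on chromosome 3, 0.93% on chromosome 4 and 0.704% on chromosome 5. The 224 measured neighbours that were not members had a median difference of −0.12, the same as the −0.12 over all measured genes. Of these neighbours, 16 were over 0.5. The share of all measured genes over 0.5 was not counted, so nothing is read from these 16 or from the adjacent members below. Adjacent members, with no measured gene between them, were AT2G43600 and AT2G43610, AT5G45480 (1.24) and AT5G45500 (4.05), and AT5G56370 and AT5G56380. Beyond AT5G45500 the next measured gene, AT5G45510, had 0.89. The chitinase genes CHI, AT2G43600 and AT2G43610 lay within 5 measured genes on chromosome 2, where the 2 genes between, AT2G43580 and AT2G43590, had −0.10 and 0.40. On the far side AT2G43620 had −0.52.

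Pseudogenes made up 10 of the 117 members with a RefSeq biotype (8.55%), compared with 6.87% of all probe sets with one. They included AT3G43690, with medians of 7.30 in lfy-12 and 7.28 in Col, against 4.54 in co-2, 4.51 in ft-2 and 4.52 in Ler. Probe sets whose probes the manufacturer marks as shared with other transcripts were 6.84% of the members and 4.66% of all.

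The change over 7 long days was not part of the rule, and was tested with limma within each genotype. A probe set was called where the Benjamini-Hochberg adjusted p over all 22746 was under 0.05. In lfy-12, 39 members were called (20.5%; 21 higher and 18 lower at day 7 than at day 0), and 12.8% of all probe sets were called, 7.74% higher and 5.08% lower. In Col, 47 were called (24.7%; 20 higher and 27 lower) with 13.2% over all probe sets, 7.15% higher and 6.08% lower. The shares in the Landsberg background were nearer to those over all probe sets, but the rule chose members for a higher level in lfy-12 and Col. Over all probe sets, calls were rarer among those at background in Ler. Nothing is therefore read from the members' shares against those over all probe sets. In co-2, 17 members were called (8.95%; 5 higher and 12 lower) with 9.12% over all probe sets, 3.6% higher and 5.52% lower. In ft-2 the count was 23 (12.1%; 4 higher and 19 lower) with 11.9% over all, 5.25% higher and 6.65% lower. In Ler it was 37 (19.5%; 16 higher and 21 lower) with 22.7% over all, 11.8% higher and 10.9% lower. The median change over the 190 members was 0.03 in lfy-12, 0.00 in Col, 0.07 in co-2, −0.06 in ft-2 and 0.04 in Ler.

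Without the 3 arrays that stood apart, 8 members were called higher and 13 lower in ft-2, where day 0 had lost an array, and 9 higher and 13 lower in co-2. Calls in single genotypes also rested on single arrays. Leaving out lfy-12 day 7 replicate 1 left 25 calls, leaving out co-2 day 0 replicate 2 left 8, co-2 day 7 replicate 2 left 11, ft-2 day 7 replicate 1 left 10 and Ler day 0 replicate 1 left 24.

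Of the members called in lfy-12 and in Col, 14 were higher in both (of 21 and 20) and 16 were lower in both (of 18 and 27). These were 7.37% and 8.42% of the members, with 4.63% and 3.5% over all probe sets. As a share of the calls in lfy-12 and in Col, the higher ones made up 66.7% and 70.0% of the members' calls and 59.8% and 64.7% of the calls over all probe sets. The lower ones made up 88.9% and 59.3% of the members' calls, with 69.0% and 57.6% over all. Between Col and Ler, 7 were higher in both (3.68%, with 5.21% over all), 9 were lower in both (4.74%, with 4.75% over all) and 1 went opposite ways. In all 5 genotypes 1 member of 190 was higher, with 1.1% over all probe sets, and 3 were lower (1.58%, with 1.29% over all). In none of them were 104 members called (54.7%, with 65.7% over all). Calls were also counted by the level in Ler. Of the 72 members whose Ler mean was in the range of the bacterial controls, 12 were called in lfy-12 (16.7%), 17 in Col (23.6%), 1 in co-2 (1.39%), 2 in ft-2 (2.78%) and 4 in Ler (5.56%). Among all 6340 probe sets at that level in Ler, 3.94% were called in lfy-12, 3.38% in Col, 2.29% in co-2, 2.21% in ft-2 and 5.88% in Ler. Of the other 118 members, 22.9% were called in lfy-12, 25.4% in Col, 13.6% in co-2, 17.8% in ft-2 and 28.0% in Ler. Among all 16406 probe sets above background in Ler, the shares were 16.2% in lfy-12, 17.0% in Col, 11.8% in co-2, 15.6% in ft-2 and 29.2% in Ler. The rule chose the members for a higher level in lfy-12 and Col, a condition that the other probe sets at the same Ler level did not meet. Nothing is therefore read from the members' shares against all probe sets at either level, or from the shared calls.

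AT1G54020, which encodes a GDSL lipase, rose in lfy-12, Col, ft-2 and Ler. In Col its signal was 9.47 and 9.88 at day 7, against 7.23 and 7.65 at day 0, a change of 2.24 ± 0.31 log2 units (SE, 2 arrays at each day; limma adjusted p = 4.81e-06). The rise was 2.87 ± 0.31 in lfy-12 (1.53e-07), 1.72 ± 0.31 in ft-2 and 1.89 ± 0.31 in Ler. In co-2 the signal was 7.00 and 6.36 at day 7, against 6.29 and 6.08 at day 0, and was not called. Its level at day 7 in Ler (7.71 and 7.65) was at or just above that of Col at day 0.

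The B3 transcription factor gene AT3G06160 rose in all 5 genotypes. The largest of these changes was in Ler, with 7.36 and 7.24 at day 7, against 4.66 and 5.23 at day 0 (2.35 ± 0.17, adjusted p = 9.06e-12). In Col it had 8.43 and 8.60 at day 7, against 6.82 and 6.53 at day 0 (1.84 ± 0.17, adjusted p = 2.88e-09). In lfy-12 the rise was 2.00 ± 0.17. It was 0.96 ± 0.17 in co-2 and 0.91 ± 0.17 in ft-2. In each genotype the arrays of the 2 days did not overlap.

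MSRB5, a methionine sulfoxide reductase that repairs oxidised proteins, fell in all 5. In lfy-12 it had 5.06 and 4.97 at day 7, against 8.45 and 7.88 at day 0 (−3.14 ± 0.24, adjusted p = 3.41e-10). In Col the fall was smaller, −1.62 ± 0.24, with 6.62 and 5.72 at day 7, against 7.78 and 7.81 at day 0. In Ler it fell by 2.11 ± 0.24, and the values at day 7, 4.39 and 4.60, were within the range of the bacterial controls. It changed by −1.42 ± 0.24 in co-2 and by −0.95 ± 0.24 in ft-2. The call in ft-2 was lost without day 0 replicate 2 (−0.92, adjusted p = 0.0729) or day 7 replicate 1 (−0.86, adjusted p = 0.0892).

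CCL, a gene named for its likeness to CCR genes, fell in lfy-12 (−1.54 ± 0.34), Col (−1.19 ± 0.34), ft-2 (−1.62 ± 0.34) and Ler (−1.17 ± 0.34). The call in Col (adjusted p = 0.0158) was lost without any 1 of its 4 arrays, with a change of −1.22 to −1.16 and an adjusted p between 0.0758 and 0.0906, and that in lfy-12 was lost without day 0 replicate 2 (−1.15, adjusted p = 0.0846). In Ler it was lost without day 0 replicate 2 (−0.98, adjusted p = 0.0903) or day 7 replicate 2 (−0.88, adjusted p = 0.169). The F-box gene AT1G23390 rose in lfy-12 (1.46 ± 0.29) and Col (1.27 ± 0.29, adjusted p = 0.0025). In Col it had 8.16 and 8.13 at day 7, against 6.96 and 6.79 at day 0. EDS1B (AT3G48080) rose by 1.40 ± 0.18 in lfy-12, to 6.83 on both arrays at day 7, against 5.74 and 5.11 at day 0, and the universal stress protein gene AT3G03270 rose by 1.07 ± 0.18 there.

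In Ler, the dioxygenase gene AT1G06640 fell by 1.67 ± 0.21, with 6.73 and 6.42 at day 7, against 8.49 and 8.01 at day 0. AT4G20480 fell by 0.91 ± 0.13, and the cysteine protease gene AT3G43960 rose by 0.90 ± 0.15. In ft-2 the glucosyltransferase gene UGT88A1 fell by 0.80 ± 0.16. The protease gene AT4G21650 was called in ft-2 as well (−0.77), but this rested on the array that stood apart. Its day 0 values there were 5.24 and 4.17, and without that array the change was −0.24 (adjusted p = 0.537).

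AT4G13210, a pectate lyase, which loosens cell wall pectin, changed in opposite directions. It rose by 0.56 in lfy-12, with 7.20 and 7.25 at day 7, against 6.70 and 6.62 at day 0. In Col it had 7.43 and 7.41 at day 7, against 6.87 and 6.88 at day 0 (0.54), and in Ler 6.33 and 6.22, against 5.59 and 5.86 (0.55). In co-2 it fell by 0.57 ± 0.13, with 5.64 and 5.56 at day 7, against 6.25 and 6.09 at day 0, and in ft-2 by 0.58, with 5.37 and 5.52, against 6.07 and 5.98. The fall in co-2 had an adjusted p between 0.0509 and 0.0519 under 3 of the alternatives, and that in ft-2 reached 0.0555 without day 7 replicate 1. The rise in Ler was not called without day 0 replicate 1. The difference in response between the mutants and Ler was not tested.

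**Figure D4:**
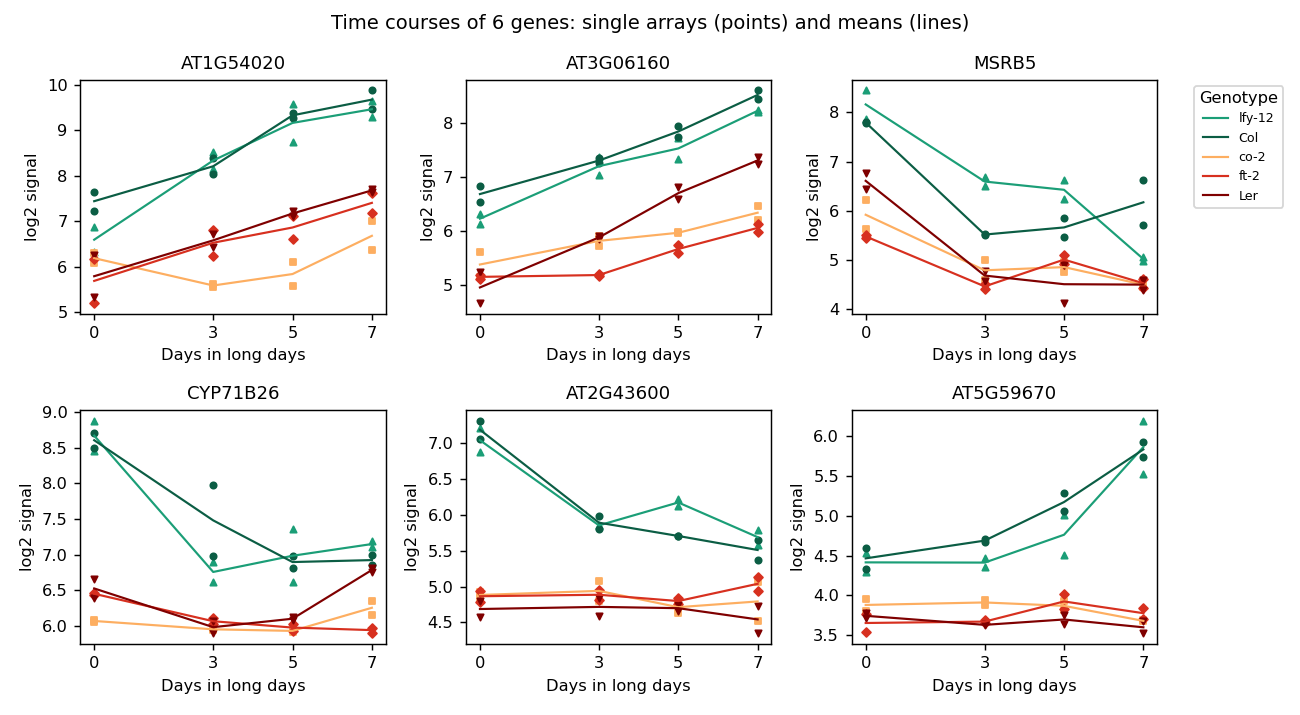
Log2 signal (y axis) of 6 member genes after 0, 3, 5 and 7 long days (x axis), with 1 point per array and lines through the means of 2 arrays of each genotype. AT1G54020 and AT3G06160 climbed and MSRB5 fell in Col and in Ler, while CYP71B26, AT2G43600 and AT5G59670 changed by 1.3 log2 units or more in lfy-12 and Col and stayed within 0.3 between day 7 and day 0 in Ler.

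Whether the response differed between the accessions was tested as an interaction, the change over 7 days in Col minus that in Ler. It was called in 19 of the 190 members (9 higher and 10 lower in Col), and 1.75% of all probe sets were called, 1.2% higher and 0.55% lower. A low level in Ler, which the rule favours, bears on this comparison. A fall cannot be followed below background there, and a rise within the background range may not show. Nothing is therefore read from the members' share against that of all probe sets. Leaving out Col day 0 replicate 2 or Col day 7 replicate 1 left 10 calls.

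The cytochrome P450 gene CYP71B26 had 7.00 and 6.85 in Col at day 7, against 8.71 and 8.50 at day 0. In Ler it had 6.76 and 6.82 at day 7, against 6.66 and 6.39 at day 0, which is above background. The difference in response was −1.94 ± 0.29 (SE; limma adjusted p = 0.000225), and at day 7 the 2 accessions were within 0.25 of each other on all 4 arrays. AT5G50130, of the short-chain dehydrogenase family, had 6.40 and 6.54 in Col at day 7, against 7.76 and 8.32 at day 0, and lay between 5.99 and 6.26 on all 8 Ler arrays (−1.49 ± 0.23, adjusted p = 0.000272). These 2 genes fell in Col towards the level that Ler had at day 0 and day 7. In lfy-12, CYP71B26 likewise had 7.19 and 7.11 at day 7, against 8.46 and 8.88 at day 0.

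The chitinase gene AT2G43600 had 5.65 and 5.37 in Col at day 7, against 7.06 and 7.32 at day 0, and 4.35 to 4.80 in Ler on those days (−1.54 ± 0.23, adjusted p = 0.000225). In Ler these values were in the range of the bacterial controls. The C1-domain protein gene AT5G43040, with 5.74 and 5.68 in Col at day 7, against 6.55 and 7.06 at day 0, was also at background in Ler (−1.30 ± 0.25, adjusted p = 0.0035). Genes that rose in Col and were at background in Ler on both days included the receptor kinase AT5G59670. It had 5.73 and 5.93 in Col at day 7, against 4.60 and 4.33 at day 0, and 3.67 and 3.53 in Ler at day 7, against 3.71 and 3.78 at day 0 (1.51 ± 0.22, adjusted p = 0.00013). Its Col values at day 0 were also within the range of the bacterial controls. The glutathione transferase GSTU16 had 6.72 and 6.53 in Col at day 7, against 5.81 and 5.72 at day 0, and stayed between 4.56 and 4.94 in Ler on those days (1.01 ± 0.19, adjusted p = 0.00248).

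For 4 other named genes the call depended on the processing. AT2G17850, a rhodanese-type sulphurtransferase, had −2.09 ± 0.53 (adjusted p = 0.034). Its Col values were 5.90 and 6.66 at day 7, against 7.93 and 8.50 at day 0, and its Ler values 4.90 and 4.95 at day 7, against 4.58 and 4.97 at day 0. These Ler values lay around the highest bacterial control mean in Ler, 4.92. AT1G06640 had 1.16 ± 0.29, the pseudogene AT4G16870 −1.11 ± 0.25 and ZW9, whose Ler means of 4.70 at day 7 and 4.27 at day 0 were at background, −1.10 ± 0.25. Each of these 4 calls was lost without single arrays of Col or Ler. In those settings the difference was −2.12 to −1.71 for AT2G17850 (adjusted p up to 0.232), 0.92 to 1.23 for AT1G06640 (up to 0.221), −1.03 to −0.82 for AT4G16870 (up to 0.153) and −1.10 to −0.88 for ZW9 (up to 0.134). AT1G06640 was also not called after quantile normalisation (1.11, adjusted p = 0.051) or without the intensity trend (adjusted p = 0.0504). With only the arrays of Col and Ler in the fit, AT1G06640 (adjusted p = 0.126) and AT4G16870 (adjusted p = 0.055) were not called.

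**Figure D5:**
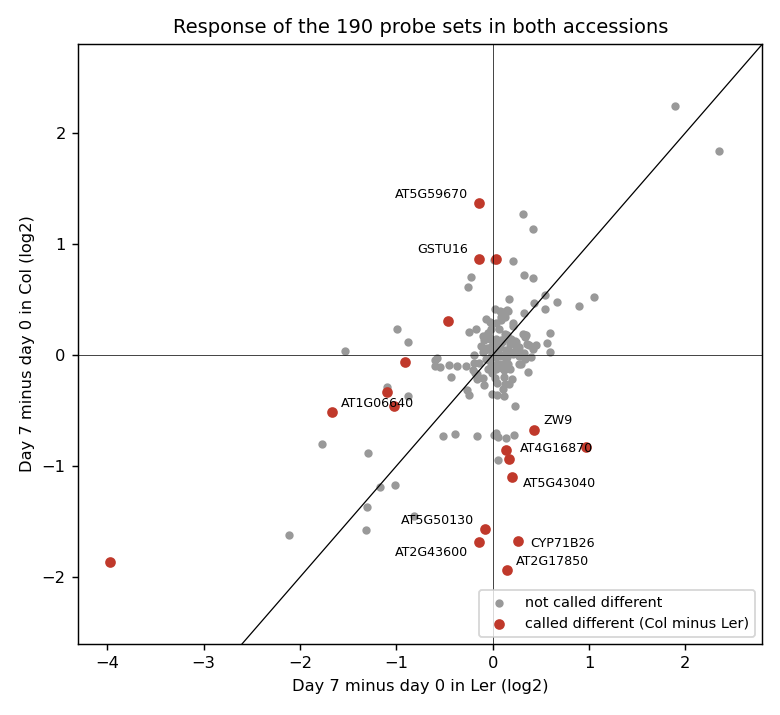
Change of the 190 probe sets between day 7 and day 0 in Col (y axis) against the same change in Ler (x axis), in log2 units, with the 19 whose response differed between the accessions in red and a line where both are equal. CYP71B26, AT5G50130, AT2G43600 and AT2G17850 lie near 0 on the Ler axis and below −1.5 on the Col axis.

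Within the Columbia background, lfy-12 was compared with Col over all 4 days. The rule used both of these means, so the counts and differences are a description, and nothing is read from the members' share against that of all probe sets. Of the members, 60 were called (31.6%; 16 higher and 44 lower in lfy-12), and 13.4% of all probe sets were called, 5.28% higher and 8.11% lower. The median over the members was −0.09, against −0.01 over all probe sets. Without the 3 arrays, 1 of which is a lfy-12 array, 19 were higher and 40 lower, with a median of −0.07.

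AT2G33220, a GRIM-19 type subunit of mitochondrial complex I, differed on every array. Its 8 lfy-12 arrays lay between 8.62 and 8.91 and its 8 Col arrays between 9.28 and 9.97, without overlap (−0.95 ± 0.06, SE). AT4G13050, an acyl-ACP thioesterase that releases fatty acids in the plastid, lay between 6.19 and 7.34 in lfy-12 and between 7.61 and 8.20 in Col (−1.26 ± 0.09). Both genes were still lower in the Landsberg background, which the rule requires of every member. AT4G13050 lay between 5.01 and 5.90 there. AT3G27610 differed by −1.19 ± 0.12, and the pentatricopeptide repeat gene AT5G15980 by −0.89 ± 0.10, with 7.09 to 8.13 in lfy-12 and 8.43 to 8.88 in Col. Genes that were higher in lfy-12 included AT1G65280 (0.76 ± 0.09), the chitinase gene CHI (0.50 ± 0.12) and AT5G27990 (0.49 ± 0.06). The ferritin-like gene AT3G61010 (−0.48 ± 0.10) and AT5G20450 (−0.48 ± 0.09) were lower. The call of the pseudogene AT3G33066 (−0.74 ± 0.22) was lost under 9 of the alternatives.

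Within the Landsberg background, co-2 and ft-2 were each compared with Ler over all 4 days, and both comparisons use the same Ler arrays. The rule used all 3 means, so these counts and differences are again a description from which nothing is read against all probe sets. In co-2, 104 members were called (54.7%; 84 higher and 20 lower), and 35.5% of all probe sets were called, 26.7% higher and 8.82% lower. In ft-2, 95 were called (50.0%; 77 higher and 18 lower), with 37.6% over all probe sets, 27.3% higher and 10.3% lower. The median over the members was 0.18 in co-2, against 0.06 over all probe sets, and 0.16 in ft-2, against 0.05 over all.

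Several measures moved together with these 2 counts, and their part in them was not tested. Of the 27 bacterial controls, 23 had a higher mean in co-2 than in Ler (median difference 0.09) and 22 in ft-2 than in Ler (0.07). After quantile normalisation of the arrays the calls were 54 higher and 24 lower in co-2, and 51 higher and 21 lower in ft-2. Without the arrays that stood apart, 71 were higher and 23 lower in co-2, and 70 higher and 22 lower in ft-2, and the medians were 0.15 and 0.13. Among the 72 members at background in Ler, 55.6% were called higher in co-2 and 52.8% in ft-2, compared with 29.6% and 30.5% of all probe sets at background in Ler. For the 118 members above background in Ler, the shares were 37.3% in co-2 and 33.1% in ft-2, compared with 25.5% and 26.1% of all probe sets above it. The rule used these means, so nothing is read from the shares by level either.

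LUL1 showed a difference on every array, with 4.55 to 5.01 in co-2 and 4.60 to 5.20 in ft-2, against 3.92 to 4.22 in Ler (0.77 ± 0.08 in co-2 and 0.78 ± 0.08 in ft-2). CYP71B37 lay between 4.54 and 5.09 in co-2 and between 4.65 and 5.07 in ft-2, against 3.79 to 4.25 in Ler (0.81 ± 0.07 and 0.87 ± 0.07). In both genes the Ler arrays did not overlap with those of the mutants, and the means of all 3 genotypes were within the range of the bacterial controls. AT1G65370, a TRAF-like gene, was above background everywhere. It lay between 7.88 and 8.83 in ft-2, against 6.61 to 7.26 in Ler (1.26 ± 0.11).

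The dioxygenase gene AT1G06640 differed from Ler by 1.28 ± 0.10 in ft-2 and by 0.63 ± 0.10 in co-2. In ft-2 it lay between 8.46 and 8.79 on all days, whereas in Ler it had 8.49 and 8.01 at day 0 and 6.73 and 6.42 at day 7. AT4G29700, a nucleotide pyrophosphatase/phosphodiesterase, differed by 1.25 ± 0.10 in ft-2 and by 0.64 ± 0.10 in co-2. ECS1 was higher by 0.85 ± 0.13 in co-2 and by 0.76 ± 0.13 in ft-2, and UGT88A1 by 0.67 ± 0.08 and 0.72 ± 0.08. 2A6 was higher by 0.71 ± 0.08 in ft-2, and the chitinase gene AT2G43610 by 0.69 ± 0.08 in co-2.

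Other members were lower in the mutants. The pseudogene AT1G35612 lay between 4.18 and 5.51 in co-2 and between 4.34 and 5.26 in ft-2, against 5.37 to 6.39 in Ler (−1.30 ± 0.11 in co-2 and −1.13 ± 0.11 in ft-2). In the Columbia background it lay between 8.21 and 8.68 in lfy-12 and between 7.77 and 8.59 in Col. AT1G54020 was lower by −0.73 ± 0.16 in co-2, the genotype in which it was not called over time, and AT3G06160 by −0.70 ± 0.08 in ft-2.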

How the data were processed

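Total RNA of the shoot apex was measured on 40 ATH1 arrays. The deposited table holds 22810 probe sets. Its values, between 3.03 and 13.63, were taken to be log2 signal: on a natural log scale the highest would stand for 834443, over the 65535 that a 16-bit scanner can give. The authors' unit, normalization and software are not given in the sources used here. The deposited log2 values were used as they are.

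The 64 control probe sets were left out. The tests used limma (version 3.58.1, R 4.3.3), with a model of 20 group means on 40 arrays (20 residual degrees of freedom) with an intensity trend, two-sided, with Benjamini-Hochberg adjustment over 22746 probe sets in each of 9 comparisons. The steps were tested on simulated data. Genotype, day and replicate came from the sample titles, per the labels. For the comparisons of day 7 with day 0, which set 2 arrays against 2, no exact permutation test can pass the threshold of 0.05. The number of arrays limits the precision.

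Names came from the platform's annotation and RefSeq. The table of RefSeq genes carries no descriptions, so the families planned from them were replaced by groups drawn from general knowledge.

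Named were, among members that list 1 gene, the 20 with the largest difference between backgrounds, up to 10 called members with the largest change in each comparison (for day comparisons, where replicates did not overlap), genes with another probe set, adjacent members, members of the lists, those nearest the threshold, and markers. Genes listed with a functional group were added for that group. The members and lists were chosen with earlier results of these data known. Alternatives were quantile normalization, a filter on low values, no trend, only the compared genotypes, a replicate block, leaving out the 3 arrays that stood apart, and leaving out each array.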

Additional observations from a re-analysis of the deposited data

Results flagged for a closer look

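In 2 of the 5 genotypes, the median over the 190 members was on 1 array far from that on the other 7, by Dixon's test, which chance meets in about 1 in 20 groups. The arrays were co-2 day 3 replicate 1, with a median of 5.90, and ft-2 day 0 replicate 1, with 5.81.

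The change between day 0 and day 7 differed between Col and Ler, by the interaction term in limma, for 10 named genes. Col minus Ler was −2.09 log2 units for AT2G17850, −1.94 for CYP71B26, −1.54 for AT2G43600, −1.49 for AT5G50130, −1.30 for AT5G43040, −1.11 for AT4G16870 and −1.10 for ZW9. It was 1.51 for AT5G59670, 1.16 for AT1G06640 and 1.01 for GSTU16. In Ler, AT2G43600, AT5G43040, ZW9, AT5G59670 and GSTU16 were within the range of the bacterial controls at day 7 and day 0, where a fall could not be followed. The Ler values of AT2G17850 on those days lay around the top of that range, 4.92. The calls of AT2G17850, AT1G06640, AT4G16870 and ZW9 were lost without single arrays of Col or Ler.

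AT4G13210 fell by 0.57 in co-2 and by 0.58 in ft-2 (−0.57 and −0.58 log2 units), with no overlap between the days, while it rose in Ler. The difference was not tested.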

How the results depend on the processing

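The set itself depends on its threshold and its genotypes. It held 52 probe sets at a threshold of 2 and 435 when only the Col and Ler means were used. It kept a similar size with medians, quantile normalization, the arrays that stood apart left out, a threshold of 0.8 (277 probe sets) or single days (169 to 193), and held 184 to 195 when 1 array was left out in turn. Counts of called members with 1 array left out were 25 to 37 in lfy-12, 34 to 40 in Col, 8 to 17 in co-2, 10 to 24 in ft-2 and 24 to 35 in Ler for day 7 against day 0, and 10 to 28 for the response in Col minus Ler. They were 49 to 60 for lfy-12 minus Col, 89 to 110 for co-2 minus Ler and 82 to 98 for ft-2 minus Ler. No other alternative moved a total of called members by 1.5 times or more, but counts by direction moved further. Without the arrays that stood apart, those called higher at day 7 were 9 in co-2 and 8 in ft-2, against 5 and 4 with them. Under quantile normalization 54 were higher in co-2 than in Ler, against 84 as deposited, 51 in ft-2 than in Ler, against 77, and the response difference was higher for 6, against 9.

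The replicate numbers are only names, and the deviations of same-numbered arrays at day 0 and day 7 correlated between −0.02 and 0.16. With the number as a replicate block, the calls at day 7 were 41 in lfy-12, 49 in Col, 19 in co-2, 23 in ft-2 and 38 in Ler. They were 20 for the response, 62 for lfy-12 minus Col, 105 for co-2 minus Ler and 96 for ft-2 minus Ler.

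Of the members called, 18 of 39 in lfy-12, 27 of 47 in Col, 6 of 17 in co-2, 8 of 23 in ft-2 and 18 of 37 in Ler were called under every alternative run, as were 8 of 19 for the response. Depth is set by background: 62 members had no signal over the bacterial controls in the Landsberg background.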
